A study of Homo sapiens with 2 samples.

Results

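Transcripts of 8 genes of the interleukin-1 (IL-1) system were followed in colon organoids. The organoids derive from an established human line of induced pluripotent stem cells, 1383D6. The genes were taken by symbol from the 36601 genes of the count tables, and all 8 were found. They are the agonist genes IL1A and IL1B, the antagonist gene IL1RN, the related cytokine genes IL18 and IL33, the receptor genes IL1R1 and IL1RAP, and the decoy receptor gene IL1R2. The study holds 2 single-cell libraries, 1 per group, prepared by 10x Genomics 3' capture. The library called CNT came from untreated organoids. The library called 3CK came from organoids that had received TNF-α, IFN-γ and IL-1β proteins for 8 days, and no doses are stated in the labels. Both groups share the line, a directed differentiation through Activin A and FGF2 steps, embedding in Matrigel and dissociation to single cells. The study's title places the organoids among models of ulcerative colitis, and the comparison addresses what the 3 inflammatory cytokines do to such cultures. With 1 library per group, the treatment cannot be told apart from any other difference between the 2 libraries, and no test across replicates was possible. Every interval below is a 95% interval and reflects the counting of molecules alone.

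The IL-1 family are cytokines that epithelial, stromal and myeloid cells make and that act early in inflammation of the gut. IL-1α and IL-1β both bind the receptor encoded by IL1R1, which signals once the accessory protein from IL1RAP has joined it, through MyD88, IRAK kinases and TRAF6 to NF-κB and MAP kinases. The IL1RN product occupies the same receptor without signalling, and the IL1R2 product binds IL-1 without passing a signal on. IL-1β and IL-18 are made as precursors that caspase-1, activated in an inflammasome, cuts to their active forms, whereas IL-33 is a nuclear alarmin released from damaged cells that acts through the receptor encoded by IL1RL1 together with the IL1RAP product. Messenger RNA counts say nothing of such cutting or release.

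After filtering, 2487 CNT barcodes with 101891737 unique molecular identifiers (UMIs, the count of captured molecules) and 1398 3CK barcodes with 91987352 UMIs were kept, with medians of 29007 and 62746 UMIs per barcode. No barcode sequence occurred in both libraries. Cells with at least 2 EPCAM UMIs per 10000 were called epithelial, and cells with at least 5 UMIs per 10000 of COL1A1, COL1A2 and COL3A1 together and EPCAM under 1 were called mesenchymal. This gave 1657 epithelial, 577 mesenchymal and 253 cells of neither class in CNT, and 1018, 123 and 257 in 3CK. The share of cells called mesenchymal was thus 23.2% in CNT and 8.80% in 3CK, and that of cells of neither class 10.2% and 18.4%. The names held only in part. All 12 mesenchymal markers had UMIs in the mesenchymal classes, where they summed to 15060 UMIs per 1000000 (CPM) in CNT and 9829 in 3CK against 1689 and 909 in the epithelial classes. The 12 epithelial markers, among them keratins, summed to 9008 and 11547 CPM in the mesenchymal classes against 11810 and 22376 in the epithelial ones. The lists include the genes of the rule, COL1A1, COL1A2 and COL3A1 in the first and EPCAM in the second. These differences between the classes were therefore set in part by the rule. The epithelial classes also carried liver markers: 7 such genes, led by TTR, summed to 98575 CPM in CNT and 32823 in 3CK. Finally, 495 CNT and 50 3CK barcodes that were epithelial by the rule also passed the collagen minimum, and these were shallow, with medians of 1070 and 1635 UMIs.

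Of the 8 genes, 5 lie on chromosome 2 (GRCh38.p14, RefSeq). IL1A (chr2:112773925-112784493) and IL1B (chr2:112829751-112836779) are neighbours, with IL1RN further along at chr2:113099360-113134014, and the receptors IL1R2 (chr2:101991960-102028544) and IL1R1 (chr2:102070390-102179874) form a second pair. IL1RAP is at chr3:190514085-190659750, IL33 at chr9:6215149-6257983 and IL18 at chr11:112143260-112164094. All 8 are protein-coding. The 250 bases before the annotated start are printed for IL1B, IL1A and IL1R1. IL1B had the largest ratio between the libraries, and its neighbour IL1A was also higher in treated mesenchymal cells. IL1R1 is a receptor gene that was lower, as was IL1RAP. The printed bases are reference sequence, 5′ to 3′ on the gene's strand, with motif matches in capitals.
IL1B promoter: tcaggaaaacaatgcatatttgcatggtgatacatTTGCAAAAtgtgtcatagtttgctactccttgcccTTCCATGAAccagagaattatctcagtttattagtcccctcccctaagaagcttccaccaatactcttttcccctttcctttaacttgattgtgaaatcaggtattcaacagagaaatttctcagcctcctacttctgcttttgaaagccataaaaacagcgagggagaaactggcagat
IL1A promoter: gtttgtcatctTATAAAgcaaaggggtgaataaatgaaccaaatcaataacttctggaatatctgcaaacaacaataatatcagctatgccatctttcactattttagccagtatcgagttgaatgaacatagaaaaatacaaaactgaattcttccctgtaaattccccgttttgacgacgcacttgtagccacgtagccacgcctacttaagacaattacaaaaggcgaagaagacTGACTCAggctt
IL1R1 promoter: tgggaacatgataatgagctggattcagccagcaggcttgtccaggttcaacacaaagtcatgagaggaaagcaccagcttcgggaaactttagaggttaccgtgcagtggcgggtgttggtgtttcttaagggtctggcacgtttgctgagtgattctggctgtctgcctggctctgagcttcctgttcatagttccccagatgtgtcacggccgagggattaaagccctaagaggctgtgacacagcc
These windows are chr2:112836780-112837029 on the minus strand for IL1B, chr2:112784494-112784743 on the minus strand for IL1A and chr2:102104354-102104603 on the plus strand for IL1R1, where the window lies within the gene's span, before the start of the transcript in the table. Both strands were searched for 6 motifs, counting positions back from the first transcribed base. IL1B held a C/EBP match, TTGCNNAA, from -215 to -208 and a GAS match, TTCNNNGAA, from -180 to -172. Of 35116 promoter windows in the same table, 9.05% held the first and 6.57% the second. IL1A held an AP-1 match, TGANTCA, from -12 to -6, which 6.57% of windows held, and a TATA match, TATAAA, from -239 to -234, which 10.7% held. The IL1R1 window held none of the 6 spellings, which also included NF-kB as GGGNNNNNCC (54.4% of windows) and ISRE as GAAANNGAAA (3.02%). Among the others, IL1RAP held 5 overlapping or separate NF-kB matches, and IL1RN held 3 NF-kB matches and 1 AP-1 match. Matches describe letters in these windows and no binding was measured.

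IL1B, the gene of the agonist whose protein was also added to the medium, differed most between the libraries. CNT held 649 UMIs and 3CK 14597, or 6.37 and 159 CPM. The log2 ratio of 3CK over CNT was 4.64 (interval 4.53 to 4.75), a 24.9-fold higher level. In mesenchymal cells IL1B stood at 18.8 CPM (370 UMIs) in CNT and 639 CPM (5770 UMIs) in 3CK, a log2 ratio of 5.08 (4.93 to 5.24). In epithelial cells it stood at 3.14 CPM (239 UMIs) and 14.3 CPM (1006 UMIs), a log2 ratio of 2.19 (1.99 to 2.40), and 2 of the 3CK epithelial cells held 36.2% of the UMIs. Over 15 alternative settings that ratio lay between 1.26 and 2.97. Cells of neither class went from 6.65 CPM (40 UMIs) to 619 CPM (7821 UMIs). The 3CK mesenchymal cells and the 3CK cells of neither class were highest, with overlapping intervals, and the 4 other groups followed without overlap in the order CNT mesenchymal, 3CK epithelial, CNT neither and CNT epithelial.

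IL1A, which encodes the agonist IL-1α, was within 2-fold over all cells and higher in treated mesenchymal cells. Over all cells 506 UMIs in CNT (4.97 CPM) compare with 612 in 3CK (6.65 CPM), a log2 ratio of 0.42 (0.25 to 0.59). Mesenchymal cells held 3.71 CPM (73 UMIs) in CNT and 12.3 CPM (111 UMIs) in 3CK, a log2 ratio of 1.73 (1.29 to 2.17). Epithelial cells held 5.18 and 5.05 CPM, a log2 ratio of -0.04 (-0.25 to 0.17). The 10 richest epithelial cells held 19.5% of these UMIs in CNT and 43.9% in 3CK. Over 15 alternative settings the epithelial ratio lay between -0.55 and -0.004. In CNT the mesenchymal level thus lay below the epithelial one and in 3CK above it, where 10 cells held 81.1% of the mesenchymal UMIs. Without the 10 mesenchymal cells of each library richest in IL1A, its ratio between the libraries was 0.49 on the log2 scale, within 2-fold. That setting takes 10 of 123 cells of 3CK but 10 of 577 of CNT, with 81.1% and 52.1% of the UMIs, which lowers the ratio by itself. Without the 10 richest cells of each class, the 3CK mesenchymal level lay below the epithelial one (-0.14).

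IL1RN, the gene of the receptor antagonist, was barely detected. CNT held 68 UMIs and 3CK 81, or 0.667 and 0.881 CPM, and the interval of the log2 ratio, -0.08 to 0.89, includes no difference and reaches nearly 2-fold. Epithelial cells held 62 and 55 of these UMIs and mesenchymal cells 6 and 5. Cells of neither class held 0 in CNT and 21 in 3CK, which is 3.33-fold higher when CNT is set to a floor of 3 UMIs. The Poisson intervals were 0 to 0.613 CPM in CNT and 1.03 to 2.54 CPM in 3CK, and 11 of the 21 UMIs lay in 1 barcode.

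IL18, which encodes a cytokine that gut epithelium makes constitutively, was the most evenly spread of the 8. It stood at 126 CPM (12805 UMIs) in CNT and 149 CPM (13715 UMIs) in 3CK, a log2 ratio of 0.25 (0.21 to 0.28). Epithelial cells of CNT held 118 CPM and those of 3CK 146 CPM, and the mesenchymal level was 146 and 150 CPM. Of the 6 combinations of library and class, the 5 highest had intervals that overlapped their neighbour's, and CNT epithelial cells alone lay apart below them. The mesenchymal level of IL18 was 103% of the epithelial one in 3CK, where that of TTR was 1.22% and of CLDN4 2.23%. For EPCAM it was 1.79%, but EPCAM is part of the class rule, which sets its figure in part.

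IL33, the gene of the alarmin IL-33, was counted at 673 UMIs in CNT against 537 in 3CK, 6.61 and 5.84 CPM, a log2 ratio of -0.18 (-0.34 to -0.01). That value rested on 1 barcode. In all, 328 of the 537 UMIs, 61.1%, lay in a single 3CK barcode of neither class, and without the highest barcode of each library the log2 ratio was -1.43. In epithelial cells IL33 was lower, with 3.54 CPM (270 UMIs) in CNT and 1.14 CPM (80 UMIs) in 3CK, a log2 ratio of -1.64 (-2.02 to -1.27). Mesenchymal markers were lower in the epithelial class of 3CK too, DCN with 50.5 and 9.80 CPM, COL6A3 with 6.90 and 2.02 and THY1 with 5.71 and 0.313. Whether the IL33 value shares in this was not tested. In mesenchymal cells it had 19.3 CPM (379 UMIs) and 9.74 CPM (88 UMIs), a log2 ratio of -0.99 (-1.34 to -0.65), just within 2-fold. That mesenchymal value depended on few cells too, since 12 of the 123 treated mesenchymal cells had any IL33 UMI. Its log2 ratio ranged from -4.97 to 0.55 over 15 alternative settings. The lowest value came from leaving out the 10 richest cells of each library, which held 97.7% of these UMIs in 3CK and 60.4% in CNT. The barcode with 328 IL33 UMIs had 48169 UMIs in all, none of EPCAM, COL1A1, DCN or PTPRC, and UMIs of 5 of the 6 endothelial markers, 11 of KDR, 10 of CLDN5, 9 of PECAM1, 4 of CDH5 and 4 of TIE1, with VWF at 0. It also had UMIs of 6 of 12 mesenchymal markers (115 in all, 97 of them VIM) and of 5 of 12 epithelial markers (137 in all, 97 of them KRT18), against 38 endothelial UMIs.

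**Figure D1:**
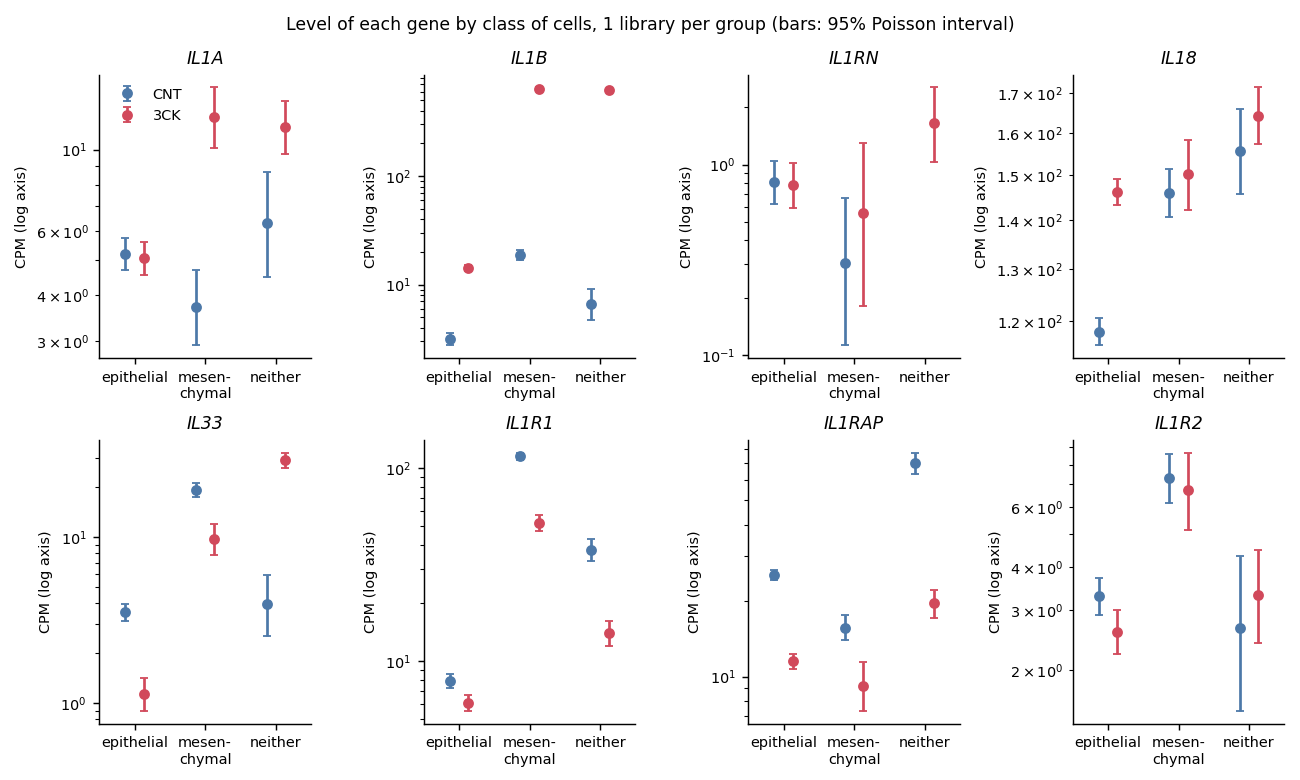
Level of each of the 8 genes in CPM (log axis, a scale of its own per gene) in epithelial, mesenchymal and neither-class cells of the CNT and 3CK libraries, with 95% Poisson intervals of the counts. IL1B in 3CK stands at 639 CPM in mesenchymal and 619 in neither-class cells, while IL18 stays between 118 and 164 CPM in every group, and IL1RN in CNT cells of neither class, at 0 UMIs, is not drawn.

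The signalling receptor gene IL1R1 was lower in 3CK. CNT held 3100 UMIs and 3CK 1076, or 30.4 and 11.7 CPM, a log2 ratio of -1.38 (-1.48 to -1.28). Mesenchymal cells had its highest level and went from 116 CPM (2270 UMIs) to 52.1 CPM (471 UMIs), a log2 ratio of -1.15 (-1.29 to -1.0). Epithelial cells held 7.91 CPM (603 UMIs) and 6.09 CPM (428 UMIs), a log2 ratio of -0.38 (-0.56 to -0.20) that lay between -1.41 and 0.06 over 15 alternative settings. The 6 groups were all apart by their intervals, in the order CNT then 3CK mesenchymal, CNT then 3CK neither, CNT then 3CK epithelial. The smaller share of cells called mesenchymal in 3CK moves with the value over all cells. The collagens of the rule were lower within that class too, COL1A1 with 3009 CPM in CNT and 912 in 3CK. COL1A2 had 1537 and 609 CPM and COL3A1 3316 and 1401, whereas DCN had 1209 and 1214. Whether the smaller share comes from fewer such cells or from less collagen per cell was not tested. Within the mesenchymal class the IL1R1 ratio was still past 2-fold. It was within 2-fold there with TMM factors (-0.97), with stricter class boundaries (-0.86) and with each cell weighted equally (-0.65).

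IL1RAP, which encodes the accessory chain, was lower in 3CK as well, and unlike IL1R1 its level was higher in epithelial than in mesenchymal cells of CNT, with overlapping intervals in 3CK. It had 2649 and 1138 UMIs, or 26.0 and 12.4 CPM, a log2 ratio of -1.07 (-1.17 to -0.97), which with TMM factors was -0.98. Epithelial cells went from 25.2 CPM (1921 UMIs) to 11.5 CPM (809 UMIs), a log2 ratio of -1.13 (-1.25 to -1.01), and this value lay between -1.24 and -1.10 over 15 alternative settings. Mesenchymal cells held 15.6 CPM (307 UMIs) and 9.19 CPM (83 UMIs), a log2 ratio of -0.77 (-1.13 to -0.41). That ratio was -1.55 with each cell weighted equally and -1.11 without the 10 richest cells of each library. The last setting takes 10 of 123 cells of 3CK but 10 of 577 of CNT. The highest level was in CNT cells of neither class, with 70.0 CPM, and it was 19.5 CPM in those of 3CK.

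IL1R2, the decoy receptor gene, had 411 and 285 UMIs, or 4.03 and 3.10 CPM, a log2 ratio of -0.38 (-0.60 to -0.16). It was within 2-fold in epithelial cells (-0.35, -0.63 to -0.07) and in mesenchymal cells (-0.12, -0.57 to 0.32). The mesenchymal levels, 7.33 CPM in CNT and 6.75 CPM in 3CK, overlapped each other and lay above the 4 other groups.

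In all, 7 of the 8 genes reached 1 CPM in either library and were read against the other genes. Over all cells, 1 was at least 2-fold higher in 3CK, where 6.93% of 17520 tested genes were, and 2 were at least 2-fold lower, where 11.4% were. In epithelial cells, 1 was higher (IL1B) against 8.43% of genes and 2 were lower (IL1RAP and IL33) against 12.1%. In mesenchymal cells, 2 were higher (IL1B and IL1A) against 6.08% and 1 was lower (IL1R1) against 16.6%. Among cells of neither class all 8 were tested, and 3 were higher (IL1B, IL33 and IL1RN) against 9.14% of 19493 genes and 2 lower (IL1R1, -1.43, and IL1RAP, -1.85) against 19.8%. Without the highest barcode of each library, 2 of the 3 higher calls in these cells were lost: IL33 had 3.26 CPM in 3CK and 2.52 in CNT (log2 ratio 0.37, -0.51 to 1.33), and IL1RN had 10 UMIs against 0, 1.60-fold higher against the floor of 3 UMIs. The median log2 ratio of the 7 was -0.18 over all cells, -0.35 in epithelial and -0.12 in mesenchymal cells, beside -0.05, 0.01 and -0.20 over all tested genes. In mesenchymal cells the split of all genes itself depended on scaling, with 1055 higher and 2882 lower by total UMIs and 1389 and 2173 with TMM factors, which moved the median gene by 0.19.

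**Figure D2:**
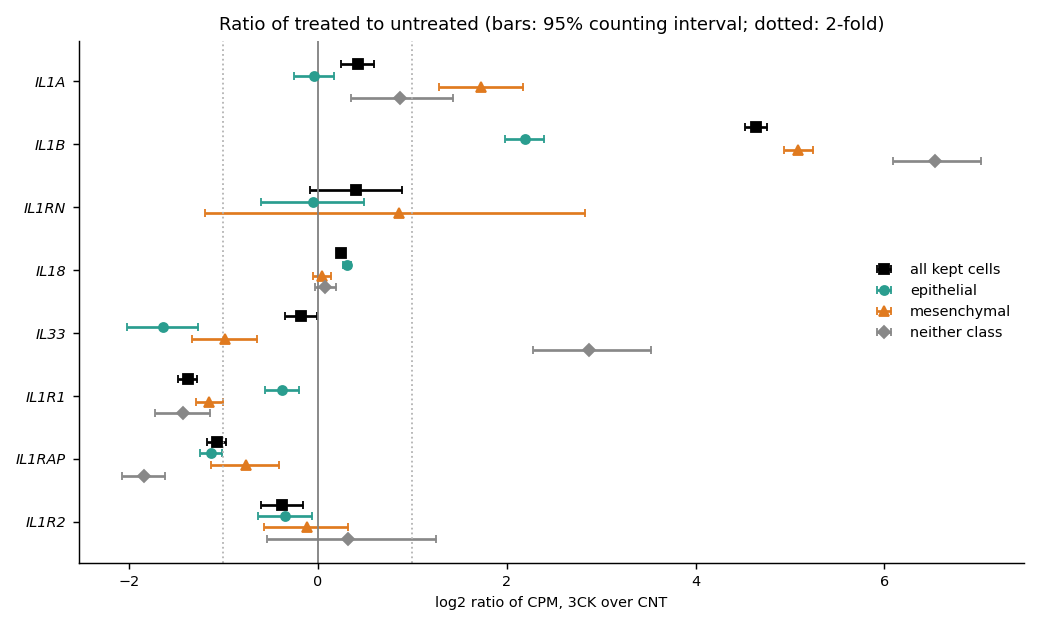
Log2 ratio of CPM, 3CK over CNT, for each gene over all kept cells and within each class, with 95% counting intervals and dotted lines at 2-fold. IL1B lies right of the 2-fold line in every class, from 2.19 in epithelial to 6.54 in neither-class cells, IL1R1 and IL1RAP lie left of 0 in every class, and IL18 lies between 0.04 and 0.31. The ratio of IL1RN in cells of neither class rests on a floor, with 0 UMIs in CNT, and is not drawn.

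Set against epithelial cells of the same library, mesenchymal cells had the higher level of IL1B, IL1R1, IL33 and IL1R2 in both libraries. In CNT the log2 ratio of mesenchymal over epithelial was 3.87 (3.74 to 4.00) for IL1R1, 2.59 (2.35 to 2.83) for IL1B, 2.44 (2.22 to 2.68) for IL33 and 1.15 (0.85 to 1.46) for IL1R2. These 4 of 7 genes were past 2-fold, as were 26.1% of 18033 tested genes in that direction, and none of the 7 was 2-fold lower, against 15.1% of genes. In 3CK the log2 ratio was 5.48 (5.38 to 5.58) for IL1B, 3.10 for IL1R1 and for IL33, 1.38 for IL1R2 and 1.28 for IL1A, so that 5 of 7 were past 2-fold against 19.1% of 17170 genes, with 0 of 7 at least 2-fold lower against 16.8%. Without the 10 cells of each class richest in the gene, the 3CK ratio was -0.14 for IL1A, -0.50 for IL33 and 0.84 for IL1R2, so that 2 of 7 stayed past 2-fold. IL1RAP lay the other way within 2-fold, at -0.69 in CNT and -0.32 in 3CK. In CNT, TMM factors moved the median gene by -0.42 and turned the split of all genes from 4711 higher and 2718 lower to 3175 and 3716, took IL1R2 within 2-fold (0.77) and put IL1RAP past it (-1.08), while IL1B, IL1R1 and IL33 stayed at least 2-fold higher.

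Free RNA from lysed cells can put UMIs into cells that do not express a gene, so the same ratio was taken for class markers. In 3CK the epithelial level of IL1B was 2.24% of the mesenchymal one. The same figure was 0.807% for DCN, 1.47% for COL1A1, 1.46% for COL6A3, 1.47% for PDGFRB and 0.370% for THY1, all stromal genes. COL1A1 is part of the class rule, which sets its figure in part. IL1R1 and IL33 stood at 11.7% each. In CNT IL1B stood at 16.7%, IL33 at 18.4% and IL1R1 at 6.85%, and the 5 stromal genes at 3.24% to 7.52%. IL1B and IL33 thus lay above the range of the stromal genes in CNT, where IL1R1 lay within it. In 3CK IL1B, IL1R1 and IL33 lay above it. Without the 2 epithelial barcodes of at least 100 IL1B UMIs, IL1B stood at 1.43%. Those barcodes were chosen on IL1B and left out of the epithelial class alone, which lowers the figure by itself. With such barcodes left out of both classes, IL1B had 9.16 CPM in epithelial and 91.9 CPM in mesenchymal cells of 3CK. Measured against all cells outside the epithelial class, the 3CK figures were 2.28% for IL1B, within the 0.606% to 3.21% of the stromal genes, 5.40% for IL33 and 20.4% for IL1R1. The epithelial rule set no collagen maximum, and 495 CNT and 50 3CK barcodes of that class also passed the collagen minimum. All these figures therefore cannot separate free RNA from barcodes that carry markers of both classes.

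Shares of cells with a UMI were compared after thinning to 10000 UMIs per cell. Cells shallower than that were left out, 642 and 286 epithelial and 266 and 18 mesenchymal cells of CNT and 3CK. The cells kept had medians of 69704 and 94100 UMIs before thinning in the epithelial classes and 52981 and 75388 in the mesenchymal ones. IL1B was found in 9.32% (6.33 to 13.1) of 311 CNT and 33.3% (24.4 to 43.2) of 105 3CK mesenchymal cells, and these ranges do not overlap. In epithelial cells it was found in 2.66% (1.76 to 3.85) of 1015 and 4.92% (3.47 to 6.74) of 732. Without thinning these shares were 10.6% and 48.0% of mesenchymal and 5.91% and 17.0% of epithelial cells. DCN, which epithelium should lack, was found in 13.3% of CNT and 3.96% (2.67 to 5.64) of 3CK epithelial cells after thinning. The CNT share of IL1B lay below that of DCN, and the 3CK ranges overlapped. In mesenchymal cells of CNT and 3CK, however, DCN stood at 1209 and 1214 CPM and IL1B at 18.8 and 639 CPM. The DCN share therefore cannot gauge free RNA for a scarcer gene, and neither share of IL1B is read as expression. TTR, the most abundant of the liver markers, was found in 99.7% and 92.4% of mesenchymal cells, so shares there are read beside the level ratios above.

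IL1R1 was found in 49.5% (43.8 to 55.2) of CNT and 34.3% (25.3 to 44.2) of 3CK mesenchymal cells, with ranges that just overlap, and in 6.01% and 5.60% of epithelial cells. Unthinned, the mesenchymal order was the opposite, 50.4% and 69.9%, with the deeper 3CK cells higher. IL1RAP was found in 19.9% (17.5 to 22.5) of CNT and 10.5% (8.39 to 13) of 3CK epithelial cells, and in 13.5% and 5.71% of mesenchymal cells. IL18 was found in 56.2% (53.0 to 59.2) and 67.5% (64.0 to 70.9) of epithelial cells and in 54.3% and 58.1% of mesenchymal cells, the largest share of the 8 genes in each class. IL33 was found in 2.76% and 0.546% of epithelial cells and in 9.0% and 5.71% of mesenchymal cells. Its epithelial shares were below those of DCN, which cannot gauge free RNA for IL33 either, as its mesenchymal levels were 19.3 and 9.74 CPM. They are not read as expression. IL1A was found in 3.22% (1.55 to 5.83) and 10.5% (5.35 to 18.0) of mesenchymal cells, and in 5.22% (3.94 to 6.77) and 2.73% (1.68 to 4.19) of epithelial cells.

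**Figure D3:**
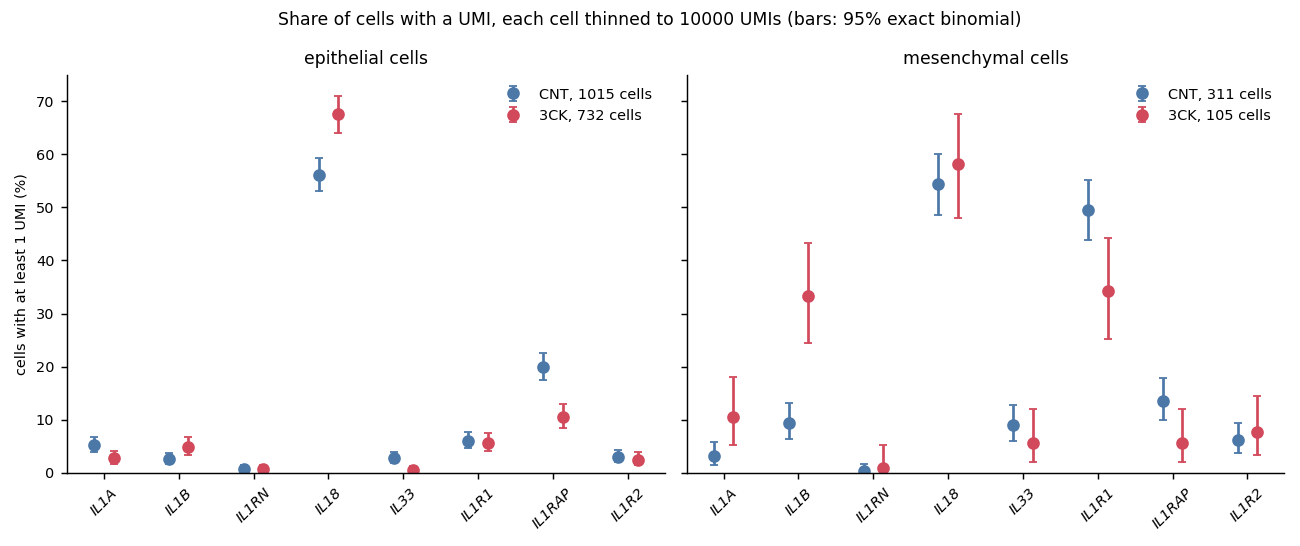
Share of cells with at least 1 UMI of each gene after thinning each cell to 10000 UMIs, in epithelial and mesenchymal cells of CNT and 3CK, with 95% exact binomial intervals. IL1B separates the libraries in mesenchymal cells (9.32% against 33.3%), IL1RAP in epithelial cells (19.9% against 10.5%), and IL18 is the most often detected gene in both panels.

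The IL1B of treated organoids was concentrated in few cells. Of 1398 3CK barcodes, 302 had an IL1B UMI, and the highest held 2254 of the 14597 UMIs (15.4%), the next 1674, 1214, 1090 and 1057. The 10 highest held 68.3%. In CNT the highest held 63 of 649 UMIs and the 10 highest 45.1%. By contrast the 10 highest barcodes for IL18 held 6.26% in 3CK and 6.66% in CNT, and for IL1R1 18.5% and 17.0%. IL33 in 3CK was more concentrated still, with 86.0% in 10 barcodes.

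In 3CK, 23 barcodes had at least 100 IL1B UMIs, the lowest of them 102 and the next barcode below 94. They are chosen on IL1B, so their values are a description. They make up 1.65% of kept barcodes and 2.97% of UMIs and hold 86.5% of the library's IL1B. By the rule 14 were mesenchymal, 7 of neither class and 2 epithelial, and their median depth was 122022 UMIs. VIM, the intermediate filament gene of stromal cells, had 4780 CPM in them, DCN 848 CPM and COL1A1 356 CPM, and all 12 mesenchymal markers together 7818 CPM. All 12 epithelial markers had UMIs too and summed to 5699 CPM, with 3075 CPM of KRT18, 1827 of KRT8 and 45.3 of EPCAM, and the 7 liver markers summed to 2431 CPM. Of 18 myeloid markers 11 had UMIs, summing to 291 CPM, and 7 were at 0, among them PTPRC, LYZ, CD163, ITGAM and C1QA. CD68 (144 CPM), TYROBP (66.2 CPM) and FCER1G (41.7 CPM) made up most of that sum. The myeloid list summed to 263 CPM in all 3CK mesenchymal cells, 89.7 in CNT mesenchymal cells, 165 in 3CK epithelial cells and 719 in 3CK cells of neither class. IL1A in these barcodes stood at 68.7 CPM, against 5.88 CPM in the other 3CK mesenchymal cells, and they held 30.7% of the library's IL1A, 14.8% of its IL1RN and 7.82% of its IL33. IL18 stood at 100 CPM against 166 CPM, IL1R1 at 39.8 against 50.1 CPM, and IL1RAP at 3.29 against 10.0 CPM. The other 3CK mesenchymal cells had 91.9 CPM of IL1B, still above the 18.8 CPM of CNT mesenchymal cells. The barcodes also held 82.1% of the library's CSF2, 59.1% of CXCL8, 52.8% of IL11, 46.8% of CSF3, 42.1% of CXCL1 and 41.2% of IL6, beside 28.5% of CCL3 and 1.18% of TNF, which is below their 2.97% of all UMIs. These genes of colony-stimulating factors, chemokines and cytokines were chosen for this count after their values were seen.

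**Figure D4:**
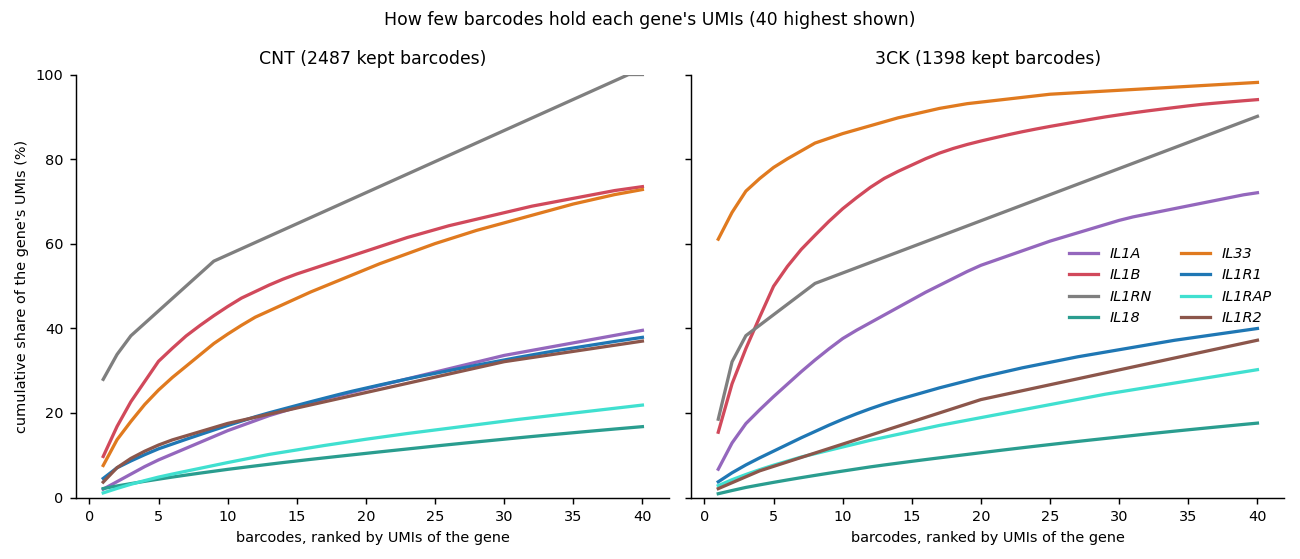
Cumulative share of each gene's UMIs (%) held by the 40 barcodes with most of them, in CNT and 3CK. IL33 and IL1B in 3CK climb fastest, to 86.0% and 68.3% at 10 barcodes, and IL18 slowest, to 6.26%.

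Genes whose level followed a family member from cell to cell were sought in 3CK cells with at least 10000 UMIs, as Pearson's r of log2(UMIs per 10000 + 1) over genes at 50 CPM or more in that class. These are descriptions over cells of 1 library that share depth and free RNA. Over 105 mesenchymal cells and 3214 genes, the genes most like IL1B were the neutrophil chemokine genes CXCL8 (0.76) and CXCL1 (0.65), the granulocyte growth factor gene CSF3 (0.70), TFPI2 (0.59) and IL6 (0.56). IL1A was most like IL1B itself (0.51), and KYNU (0.45), TFPI (0.43) and MYEOV (0.41) were also among the highest. IL1R1 went with EPAS1, CDH11, MEIS2, RRBP1 and MME (0.48 to 0.51), and its r with IL1B was -0.01. IL18 went with NNMT, KRT8, SERPINB1, KRT18 and DNAJC19 (0.45 to 0.48), and its r with IL1B was -0.23. For IL1RAP, over 732 epithelial cells and 3229 genes, the highest were BAZ2B, HUWE1, ADD3, LCOR and MYO1D, at 0.33 to 0.35.

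Of the other family genes, the ligand genes were almost silent: of 6, only IL37, which encodes a cytokine that restrains inflammation, reached 1 CPM, with 427 UMIs in CNT and 67 in 3CK (log2 ratio -2.52, -2.92 to -2.15). Among 8 other receptors and inhibitors 6 were tested, with 1 higher and 2 lower, beside 6.93% and 11.4% of all genes. IL18BP, whose product traps IL-18, went from 100 to 4736 UMIs, or 0.981 to 51.5 CPM, a log2 ratio of 5.71 (5.43 to 6.01), while IL18 itself was within 2-fold. It was higher in epithelial cells (6.20) and in mesenchymal cells (4.79). IL1RL1, the IL-33 receptor gene, went from 228 to 14 UMIs (-3.88, -4.77 to -3.10), and in mesenchymal cells from 166 to 10. The other lower gene was IL1RAPL1 (-1.39), named after its value was seen. SIGIRR, the gene of an inhibitory receptor of the family, was within 2-fold (0.36). In mesenchymal cells 7 of the 8 were tested, with 1 higher and 5 lower beside 6.08% and 16.6% of all genes. The 5, named after their values were seen, were IL1RL1 (-2.93), IL1RAPL1 (-1.89), IL1RL2 (-1.34), the IL-18 receptor gene IL18R1 (-1.16, from 185 to 38 UMIs) and IL1RAPL2 (-1.12).

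Of the genes of inflammasomes and of IL-1β and IL-18 processing, with sensors and inhibitors among them, more were higher than lower in 3CK. Of 22 inflammasome and processing genes 14 were tested over all cells, and 8 were at least 2-fold higher and 0 lower, beside 6.93% and 11.4% of all genes, with a median log2 ratio of 1.44 beside -0.05. AIM2, a sensor of cytosolic DNA, was the highest of the list (392 and 3724 UMIs, 3.40). CAPN2, a calpain gene, was level (0.09) and CARD18, an inhibitor of caspase-1, was the lowest (-0.53). In epithelial cells 9 of 14 were higher and 0 lower (median 1.38), beside 8.43% and 12.1%. In mesenchymal cells 7 of 16 were higher, beside 6.08% of all genes, and 3 were lower, a share near the 16.6% of all genes (median 0.57), the 3 being NAIP (-1.11), CARD18 (-1.0) and CELA2A (-1.99). CASP1, which encodes the enzyme that cuts both cytokines and is named here after its values were seen, had 1.01 CPM (77 UMIs) in CNT epithelial cells and 56.1 CPM (3943 UMIs) in 3CK ones, a log2 ratio of 5.79 (5.47 to 6.14). In mesenchymal cells it had 22.9 and 58.7 CPM (1.36, 1.17 to 1.54). The 3CK levels of the 2 classes thus overlapped, while those of CNT lay apart.

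All 28 signal transducers and brakes were tested, and over all cells 7 were higher and 0 lower (median 0.39), beside 6.93% and 11.4% of all genes and a median of -0.05. The higher ones named by rule are feedback inhibitors: ZC3H12A, an RNase that degrades cytokine messages (2.66), TNFAIP3, the A20 deubiquitinase (2.31), its partner TNIP1 (2.31) and NFKBIA, which holds NF-κB in the cytoplasm (1.74). UBE2V1, the most abundant, was level (0.22), and TAB3 (-0.90), PELI3 (-0.70) and MAPK8 (-0.39) were the lowest. The counts were 7 higher and 1 lower in epithelial cells (TAB3, -1.10), beside 8.43% and 12.1% of all genes. In mesenchymal cells they were 7 higher and 1 lower (PELI2, -1.58, named after its value was seen), beside 6.08% and 16.6%.

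Of 30 genes known to be induced by IL-1, 24 were at least 2-fold higher and 2 lower (median 3.27), beside 6.93% and 11.4% of all genes. TNF-α acts on many of them too, and since TNF-α, IFN-γ and IL-1β were added together their parts cannot be told apart. CSF3 had 16 UMIs in CNT and 8015 in 3CK (9.12, 8.42 to 9.92), CSF2 had 2 and 486 (8.07, 6.21 to 11.12), and the adhesion molecule gene ICAM1 had 1599 and 65578 (5.51). The acute-phase genes SAA1 (2.87) and SAA2 (3.75), whose near-identical sequences may share reads, and the mitochondrial dismutase gene SOD2 (3.65) were the most abundant. The pentraxin gene PTX3 (-2.21) and the collagenase gene MMP1 (-1.39) were lower, and HAS2, a hyaluronan synthase gene, was within 2-fold (-0.91). The counts were 24 higher and 3 lower of 29 in epithelial cells (median 3.17, beside 8.43% and 12.1% of all genes) and 22 higher and 3 lower of 30 in mesenchymal cells (median 2.93, beside 6.08% and 16.6%). Free RNA was not gauged for this list, and whether the epithelial count includes transcripts from other cells was not tested.

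**Figure D5:**
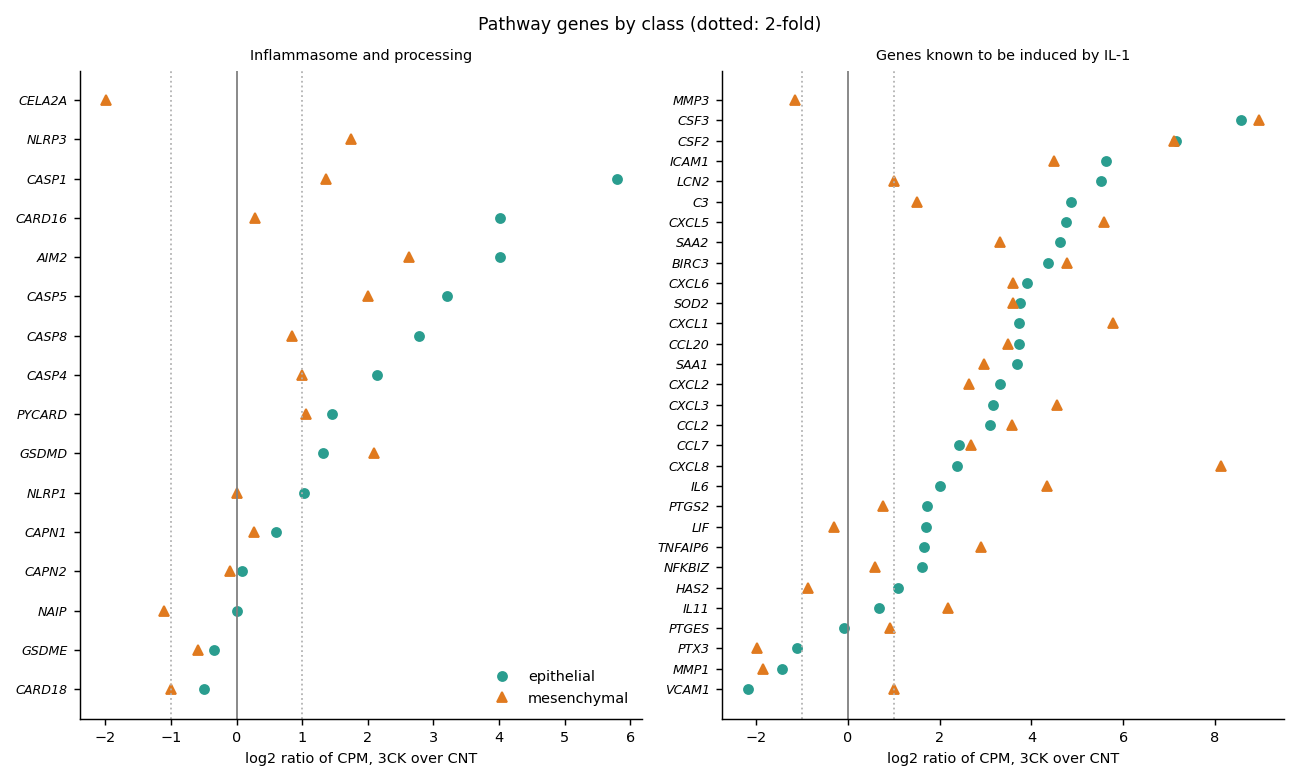
Log2 ratio of CPM, 3CK over CNT, of each tested gene of the inflammasome list and of the list of genes known to be induced by IL-1, in epithelial (circles) and mesenchymal (triangles) cells, with dotted lines at 2-fold. CASP1 stands at 5.79 in epithelial and 1.36 in mesenchymal cells, and CXCL8 at 2.38 and 8.14, both singled out after their values were seen.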

How the data were processed

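Gene by barcode matrices of 2 droplet libraries were used. Per the file headers the deposited values are raw UMI counts from Cell Ranger 7.1.0, and the build is GRCh38 per the submitters' processing notes. The annotation is not given in the sources used here. Barcodes with at least 500 genes and at most 20% mitochondrial UMIs were kept, and the highest Scrublet doublet scores were removed at 0.8% per 1000 barcodes (scanpy 1.11.5, Python 3.11.15). This removed 770 CNT and 243 3CK barcodes, 52 and 16 of them as doublets. UMIs were summed per library and class and scaled to CPM by the total. Intervals are exact Poisson for CPM and Clopper-Pearson for shares, and that of a ratio comes from the Clopper-Pearson interval of one group's share of both counts. A gene was tested at 1 CPM or more in either group and read as past the fold at 2-fold or more. A group at 0 was set to a floor of 3 UMIs. The sums and ratios were tested on simulated data. Named genes are the 8 members, the most abundant and the most extreme genes of each of 5 pathway lists, and the 5 genes most like a member, of which 1 is not reported here. The members and lists were chosen with earlier results of these data known. Alternatives covered barcode filters, doublets, depth, class boundaries, scaling (TMM, edgeR 4.0.16), cell weighting, level minimums, thinning and, chosen after seeing the data, leaving out each gene's highest barcodes, taking all cells outside the epithelial class as the reference for free RNA, and a mesenchymal class set by EPCAM alone.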

Additional observations from a re-analysis of the deposited data

How the results depend on the processing

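No paired analysis was possible because each group has 1 library. Of 144 counts of genes past 2-fold under the alternatives, 140 were within 1.5 times the reported count. The others were 2 counts of inflammasome genes in mesenchymal cells, 6 in place of 10 both with the stricter barcode filter and with a minimum of 10 CPM, and 2 counts of family genes in mesenchymal over epithelial cells of 3CK, which were 3 with a minimum of 10 CPM and 2 without each gene's 10 highest barcodes, in place of 5. That last setting also turned the direction of IL1A (-0.14) and IL33 (-0.50) in the same comparison. It takes 10 of 123 mesenchymal but 10 of 1018 epithelial cells. Between the libraries it takes 10 of 123 mesenchymal cells of 3CK but 10 of 577 of CNT. Of 573 log2 ratios, 18 came to be read as past 2-fold and 12 ceased to be. Both counts include genes that crossed the level minimum for testing, with or without a change of ratio. A further 38, not read as past 2-fold before, moved out of their counting interval. IL1B stayed higher in 3CK under every alternative run, at 3.86 to 4.79 over all cells, 1.26 to 2.97 in epithelial and 4.56 to 5.51 in mesenchymal cells. IL1R1 in epithelial cells was -1.41 with cells weighted equally and 0.06 with stricter classes. Of 160 shares, 108 stayed within their interval. Depth limits IL1RN, at under 1 CPM, and every mesenchymal value of 3CK, which rests on 123 cells.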
